A study of Homo sapiens with 18 samples.

Results

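The serum- and glucocorticoid-regulated kinases (SGK) and a set of their substrates were followed as 7 genes in an array study of glucocorticoid receptor expression in adrenal cells. The genes were the kinases SGK1, SGK2 and SGK3 and the substrates or targets NEDD4L, NDRG1, NDRG2 and SCNN1A. They were chosen by gene symbol, with earlier results of these data known. Of the 18417 genes with a probe set annotated to a single symbol, 6 were members of this set. The remaining member, SGK3, was represented by a probe set that also carries the symbol of the readthrough gene C8orf44-SGK3, so its signal could not be assigned to SGK3 alone and is given apart.

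The cells were H295R, a steroid-producing line established from an adrenocortical carcinoma. They carried pcDNA4 stably and without induction, either empty (control cells) or with the coding sequence of GRα, the hormone-binding form of the receptor encoded by NR3C1. Cells of both lines were starved of serum for 24 h and then exposed for 6 h to ethanol vehicle, to 100 nM dexamethasone (a synthetic glucocorticoid) or to 100 nM RU486 (mifepristone, which occupies the receptor with little agonist activity). These 6 groups held 3 arrays each, except GRα cells with RU486, which held 2 because the array of replicate A has no values and failed quality control per the labels. Each line was a single stable line, so the receptor and any other difference between the 2 lines cannot be told apart. RNA came from whole cultures, in which a changed share of expressing cells and a changed level per cell cannot be told apart either.

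SGK kinases belong to the AGC family, together with the AKT and ribosomal S6 kinases. Lipid signalling through PI3K, the mTORC2 complex and the kinase PDPK1 turns them on, while the abundance of SGK1 itself is set largely by transcription and rapid turnover. SGK1 is a textbook glucocorticoid and mineralocorticoid target, and in sodium-transporting epithelia it phosphorylates the ubiquitin ligase NEDD4L so that the sodium channel ENaC, of which SCNN1A encodes the alpha subunit, stays at the membrane. NDRG1 and NDRG2 are cytoplasmic proteins whose phosphorylation is widely read as a measure of SGK activity. The arrays measured RNA, and neither kinase activity nor phosphorylation was measured.

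Over all genes, Pearson r was 0.987 to 0.997 between arrays within a line and 0.971 to 0.977 across the lines. The array of GRα vehicle replicate B had the lowest weight of the set, 0.19. NR3C1 averaged 7.36 ± 0.07 on the log2 scale (SD, n = 3) in control vehicle and 7.94 ± 0.04 (SD, n = 3) in GRα vehicle, a log2 difference of 0.59 ± 0.07 SE (adjusted p = 1.37e-06, limma with Benjamini-Hochberg adjustment). Of 8 listed adrenocortical markers 7 were measured: NR5A1, STAR, CYP11A1, CYP17A1 and FDX1 had group means between 8.30 and 10.39, HSD3B2 ran from 5.28 to 7.29, and MC2R, the receptor for ACTH, lay in the dimmest 25% of genes. In vehicle 1 of these 7 was higher and 4 were lower in GRα cells, with log2 differences of -0.91 ± 0.07 SE for STAR and -1.59 ± 0.15 SE for HSD3B2 (adjusted p = 3.12e-08 and 2.06e-07, limma). Of the markers of other cell types, DCN, LUM and PDGFRA (fibroblast), PECAM1, VWF and KDR (endothelial) and PTPRC, CD3E and LYZ (leukocyte) lay in the dimmest 25%. COL1A1 (group means 7.08 to 7.62), COL1A2, CDH5 and CD14 (5.90 to 6.23) did not, nor did the chromaffin markers TH (6.20 to 6.38), DBH, PNMT and CHGA. In vehicle 1 of 5 fibroblast, 2 of 4 endothelial, 1 of 4 chromaffin and 0 of 4 measured leukocyte markers were called, each higher in GRα cells. Over all genes 33.4% were called in this comparison, 15% higher and 18.3% lower. The marker counts are not read as a gain or loss of a cell type. The part of these markers in the results below was not tested.

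Upstream sequence is shown for SGK1, since it gave the widest difference between the lines among the members, and for NEDD4L, since it was the member called after dexamethasone. RefSeq promoter windows (GRCh38.p14) matched 3 of the members looked up, SGK1, NEDD4L and NDRG2. The 250 bases before each start are printed 5′ to 3′ on the gene's strand. Capitals in the SGK1 windows mark a match to the core promoter motif TATAAA or its reverse complement, and those in the NEDD4L window mark the half-site of the glucocorticoid response element, TGTTCT, for which both strands were searched likewise.
SGK1, start 1: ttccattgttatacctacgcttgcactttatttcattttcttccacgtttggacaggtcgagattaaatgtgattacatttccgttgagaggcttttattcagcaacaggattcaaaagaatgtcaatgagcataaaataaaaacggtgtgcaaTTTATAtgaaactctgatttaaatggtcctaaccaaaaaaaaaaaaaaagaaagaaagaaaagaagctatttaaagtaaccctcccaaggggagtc
SGK1, start 2: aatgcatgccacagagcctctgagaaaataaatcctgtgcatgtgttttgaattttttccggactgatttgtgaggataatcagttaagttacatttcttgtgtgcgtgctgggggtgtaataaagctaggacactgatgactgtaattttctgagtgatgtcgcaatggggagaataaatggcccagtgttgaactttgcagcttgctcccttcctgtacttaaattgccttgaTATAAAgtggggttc
SGK1, start 3: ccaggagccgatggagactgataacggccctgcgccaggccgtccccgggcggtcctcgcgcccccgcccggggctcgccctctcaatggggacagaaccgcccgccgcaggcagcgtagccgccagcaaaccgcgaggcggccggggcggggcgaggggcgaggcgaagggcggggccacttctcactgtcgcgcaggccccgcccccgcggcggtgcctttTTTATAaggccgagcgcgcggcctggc
NEDD4L, start 1: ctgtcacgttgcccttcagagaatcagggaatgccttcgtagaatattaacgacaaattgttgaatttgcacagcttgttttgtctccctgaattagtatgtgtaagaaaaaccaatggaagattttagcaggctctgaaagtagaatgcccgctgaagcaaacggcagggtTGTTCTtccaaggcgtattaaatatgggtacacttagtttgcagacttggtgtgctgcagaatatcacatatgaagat

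The SGK1 windows lie on the minus strand at chr6:134318113-134318362, chr6:134177862-134178111 and chr6:134174867-134175116, and hold 33.6%, 41.6% and 76% G and C. Each holds 1 TATAAA match, beginning 96, 15 and 27 bases before its start, and none holds the half-site. The NEDD4L window lies on the plus strand at chr18:58046976-58047225, with 1 half-site match 78 bases before the start, and the other 4 NEDD4L windows and all 5 NDRG2 windows hold none. Over all 35116 windows of this length, 12.4% held the half-site, 10.7% held TATAAA and 0.00285% held the full palindrome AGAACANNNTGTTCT. A match describes letters in a window and does not show binding, and the arrays do not tell which start was used.

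All GRα arrays held more SGK1 RNA than all control arrays under the 3 treatments, and NDRG1, a substrate, was higher in GRα cells as well. NDRG2, the related substrate, was lower. The 3 members NEDD4L, SGK2 and SCNN1A were not called between the lines under any treatment. Thus 3 of the 6 measured members were called in vehicle, 2 higher and 1 lower, against 33.4% of all genes called (15% higher and 18.3% lower). The same members were called in the same directions under dexamethasone, where 33.3% of all genes were called (15.7% higher and 17.6% lower), and under RU486, where 29.2% were called (13.1% higher and 16.2% lower). With a background of this size, the members' share is not read as particular to them.

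**Figure D1:**
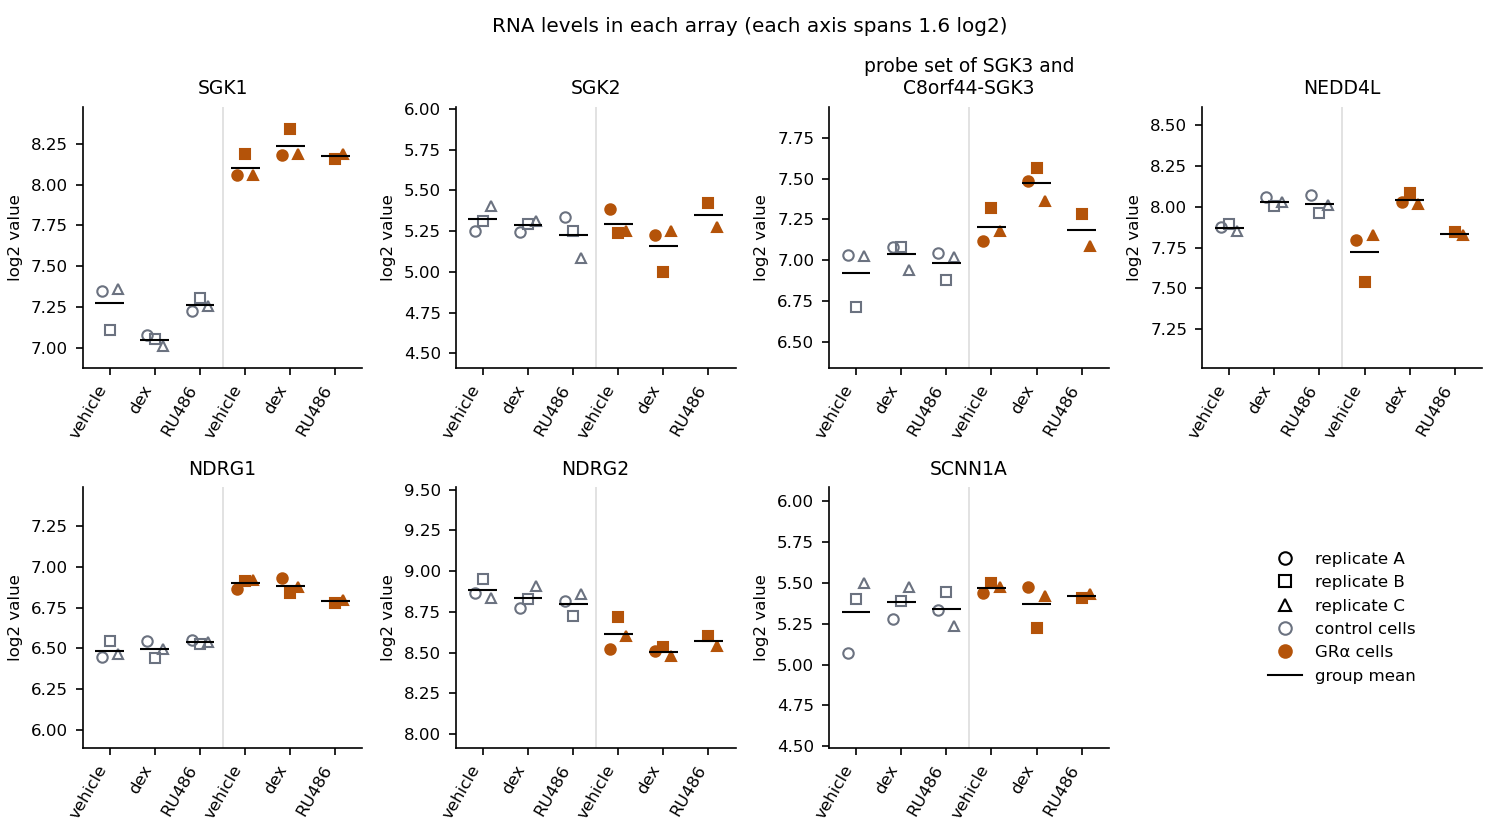
Deposited log2 values of each member in each array (points, with shapes for the replicate letter) and group means (bars), in control cells (grey, open) and GRα cells (orange, filled) with vehicle, dexamethasone or RU486; every axis spans the same log2 range. The SGK1 arrays of GRα cells lie between 8.06 and 8.34 and those of control cells between 7.01 and 7.36, whereas SGK2 and SCNN1A overlap between the lines.

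The kinase SGK1 read 7.35, 7.11 and 7.36 in control vehicle and 8.06, 8.19 and 8.06 in GRα vehicle. With dexamethasone it read 7.08, 7.05 and 7.01 in control cells and 8.18, 8.34 and 8.19 in GRα cells. With RU486 it read 7.23, 7.31 and 7.26 in control cells and 8.16 and 8.19 in GRα cells. The lines did not overlap under any treatment, and the lowest 3 arrays of the whole series were the dexamethasone arrays of control cells. Over all genes, the arrays of the lines lay apart in this way for 40.5% in vehicle, 45.6% with dexamethasone and 54.8% with RU486.

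In vehicle, SGK1 was 1.78-fold higher in GRα cells (log2 0.83 ± 0.07 SE, adjusted p = 7.42e-08, limma). The difference was 1.19 ± 0.07 SE on the log2 scale with dexamethasone, or 2.29-fold (adjusted p = 7.55e-10, limma), and 0.91 ± 0.08 SE with RU486 (adjusted p = 1.2e-07, limma). Leaving out each array in turn gave log2 differences of 0.75 to 0.87 in vehicle, 1.14 to 1.22 with dexamethasone and 0.89 to 0.93 with RU486, all of them called. In order of level, SGK1 averaged 8.24 ± 0.09 (SD, n = 3) in GRα dexamethasone, 8.17 ± 0.02 (SD, n = 2) in GRα RU486 and 8.10 ± 0.08 (SD, n = 3) in GRα vehicle, and these neighbours overlapped. It averaged 7.27 ± 0.14 (SD, n = 3) in control vehicle, 7.26 ± 0.04 (SD, n = 3) in control RU486 and 7.05 ± 0.03 (SD, n = 3) in control dexamethasone, of which the first 2 overlapped.

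SGK2, a paralogue that is best known from liver, kidney and pancreas, had group means of 5.16 to 5.35 and array values of 5.00 to 5.42. Its mean over all arrays lay in the dimmest 25% of genes, below 5.56, and whether it was above background was not tested. Neighbouring groups overlapped throughout the order of levels. The log2 difference between the lines was -0.03 ± 0.08 SE in vehicle, with a 95% interval from -0.20 to 0.14, and no comparison of SGK2 was called.

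SGK3, which carries a lipid-binding PX domain that places it on endosomes, could be read only together with its readthrough gene. Their shared probe set read 7.03, 6.71 and 7.02 in control vehicle and 7.12, 7.32 and 7.18 in GRα vehicle. With dexamethasone it read 7.08, 7.08 and 6.94 in control cells and 7.49, 7.57 and 7.36 in GRα cells. With RU486 it read 7.04, 6.88 and 7.02 in control cells and 7.28 and 7.09 in GRα cells, so the lines did not overlap under any treatment. Among all genes, 40.5% lay apart in this way in vehicle, 45.6% with dexamethasone and 54.8% with RU486. In a limma fit over all probe sets, the log2 difference between the lines was 0.28 ± 0.09 SE in vehicle (adjusted p = 0.036), 0.44 ± 0.09 SE with dexamethasone (adjusted p = 0.00217) and 0.21 ± 0.11 SE with RU486 (adjusted p = 0.197). The share of all probe sets called in that fit was not counted. In the fit over genes, 33.4% were called in vehicle, 33.3% with dexamethasone and 29.2% with RU486. The vehicle call was lost without control vehicle replicate B (log2 0.18, limma adjusted p = 0.18), without GRα vehicle replicate B (0.23, 0.122) and without GRα vehicle replicate C (0.30, 0.0572). The dexamethasone call held without each array in turn, at log2 0.39 to 0.49.

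NDRG1, a stress- and hypoxia-responsive protein phosphorylated by SGK1, read 6.45, 6.54 and 6.46 in control vehicle and 6.87, 6.91 and 6.92 in GRα vehicle. With dexamethasone it read 6.55, 6.44 and 6.49 in control cells and 6.93, 6.84 and 6.88 in GRα cells. With RU486 it read 6.55, 6.52 and 6.54 in control cells and 6.78 and 6.80 in GRα cells. Every GRα array was above every control array. The log2 difference was 0.42 ± 0.06 SE in vehicle (adjusted p = 1.06e-05, limma), 0.39 ± 0.06 SE with dexamethasone (adjusted p = 2.33e-05, limma) and 0.25 ± 0.06 SE with RU486 (adjusted p = 0.00457, limma). Within the control line the 3 group means ran from 6.48 to 6.54 and overlapped in order. GRα RU486, at 6.79 ± 0.02 (SD, n = 2), lay below GRα dexamethasone, at 6.88 ± 0.05 (SD, n = 3), and GRα vehicle, at 6.90 ± 0.03 (SD, n = 3), without overlap.

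NDRG2, a related protein described as a growth suppressor, read 8.87, 8.95 and 8.84 in control vehicle and 8.52, 8.72 and 8.60 in GRα vehicle. With dexamethasone it read 8.77, 8.83 and 8.91 in control cells and 8.51, 8.53 and 8.48 in GRα cells. With RU486 it read 8.82, 8.72 and 8.86 in control cells and 8.60 and 8.54 in GRα cells. Within each treatment every GRα array was below every control array. These values come from the probe set annotated to NDRG2 alone. Values of a second probe set, annotated to PAPLN and NDRG2, were not examined. NDRG2 was 1.21-fold lower in GRα vehicle (log2 -0.27 ± 0.07 SE, adjusted p = 0.00362, limma), with log2 differences of -0.33 ± 0.07 SE under dexamethasone (adjusted p = 0.00063, limma) and -0.23 ± 0.07 SE under RU486 (adjusted p = 0.024, limma). The RU486 call held in 2 of 6 fits that left out an array. It was lost without control RU486 replicate A (limma adjusted p = 0.0649) or C (0.0882) and without GRα RU486 replicate B (0.0612) or C (0.171), at log2 differences of -0.27 to -0.20 over the 6 fits.

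NEDD4L, the ligase that SGK1 phosphorylates, read 7.88, 7.89 and 7.85 in control vehicle and 7.80, 7.54 and 7.83 in GRα vehicle. With dexamethasone it read 8.06, 8.01 and 8.03 in control cells and 8.03, 8.08 and 8.02 in GRα cells. With RU486 it read 8.07, 7.97 and 8.01 in control cells and 7.85 and 7.83 in GRα cells. The GRα arrays lay below the control arrays in vehicle and with RU486, and the lines overlapped with dexamethasone. Neither gap was called: the log2 difference was -0.15 ± 0.07 SE in vehicle (adjusted p = 0.11, limma) and -0.18 ± 0.08 SE with RU486 (adjusted p = 0.0901, limma). Leaving out single arrays moved the vehicle gap from -0.20 without GRα vehicle replicate C, where it was called (limma adjusted p = 0.043), to -0.06 without GRα vehicle replicate B (limma adjusted p = 0.439). The RU486 gap was called with array weights (-0.18, limma adjusted p = 0.0165) and without GRα vehicle replicate B, an array that enters only the estimate of spread (-0.18, limma adjusted p = 0.0133).

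SCNN1A, the alpha subunit of ENaC, had group means of 5.33 to 5.47 and array values of 5.07 to 5.50, in the dimmest 25% of genes. The lowest array, at 5.07, was control vehicle replicate A, and that group had the widest SD, 0.22 (n = 3). Whether SCNN1A was above background was not tested. The log2 difference between the lines was 0.15 ± 0.10 SE in vehicle, with a 95% interval from -0.06 to 0.35 (adjusted p = 0.275, limma). It was 0.02 without control vehicle replicate A and 0.23 without control vehicle replicate C. No comparison of SCNN1A was called.

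Dexamethasone changed 1 of the 6 measured members in GRα cells and none in control cells. NEDD4L rose 1.25-fold in GRα cells (log2 0.32 ± 0.07 SE, adjusted p = 0.0193, limma), and the 3 dexamethasone arrays lay above the 3 vehicle arrays, as groups lay apart for 15.8% of all genes. Over all genes, 2.02% were called in this comparison and 1.36% were called higher. In control cells, where 0.261% of all genes were called, the NEDD4L arrays also lay apart (as 12.7% of all genes did), with a log2 difference of 0.16 ± 0.07 SE (unadjusted p = 0.0334, adjusted p = 0.938, limma). The difference between the lines in this effect was 0.16 ± 0.10 SE and was not called (adjusted p = 0.751, limma), and without GRα vehicle replicate B it was 0.07.

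The NEDD4L call rested on the arrays used. It was lost without GRα dexamethasone replicate A (log2 0.33, limma adjusted p = 0.0556), without its replicate B (0.30, 0.0928), and in a fit restricted to the arrays of that comparison (0.32, 0.315). Without GRα vehicle replicate B, which held the lowest NEDD4L value of the series, the log2 difference was 0.23 and the call held (limma adjusted p = 0.0389).

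SGK1 itself was not called after dexamethasone in either line. In GRα cells the log2 difference was 0.14 ± 0.07 SE, with a 95% interval from -0.02 to 0.29 and overlapping arrays (adjusted p = 0.384, limma). In control cells it was -0.23 ± 0.07 SE, with all 3 dexamethasone arrays below all 3 vehicle arrays (unadjusted p = 0.00619, adjusted p = 0.535, limma). It was called in control cells with array weights, at log2 -0.26 (limma adjusted p = 0.0429). The difference between the lines in the dexamethasone effect was 0.36 ± 0.10 SE (unadjusted p = 0.00251), which was not called over all genes (adjusted p = 0.383, limma), and 0.0652% of all genes were called for that difference. Of the other members, SGK2 changed by -0.13 ± 0.08 SE, NDRG2 by -0.11 ± 0.07 SE, SCNN1A by -0.10 ± 0.10 SE and NDRG1 by -0.02 ± 0.06 SE in GRα cells, none of them called.

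**Figure D2:**
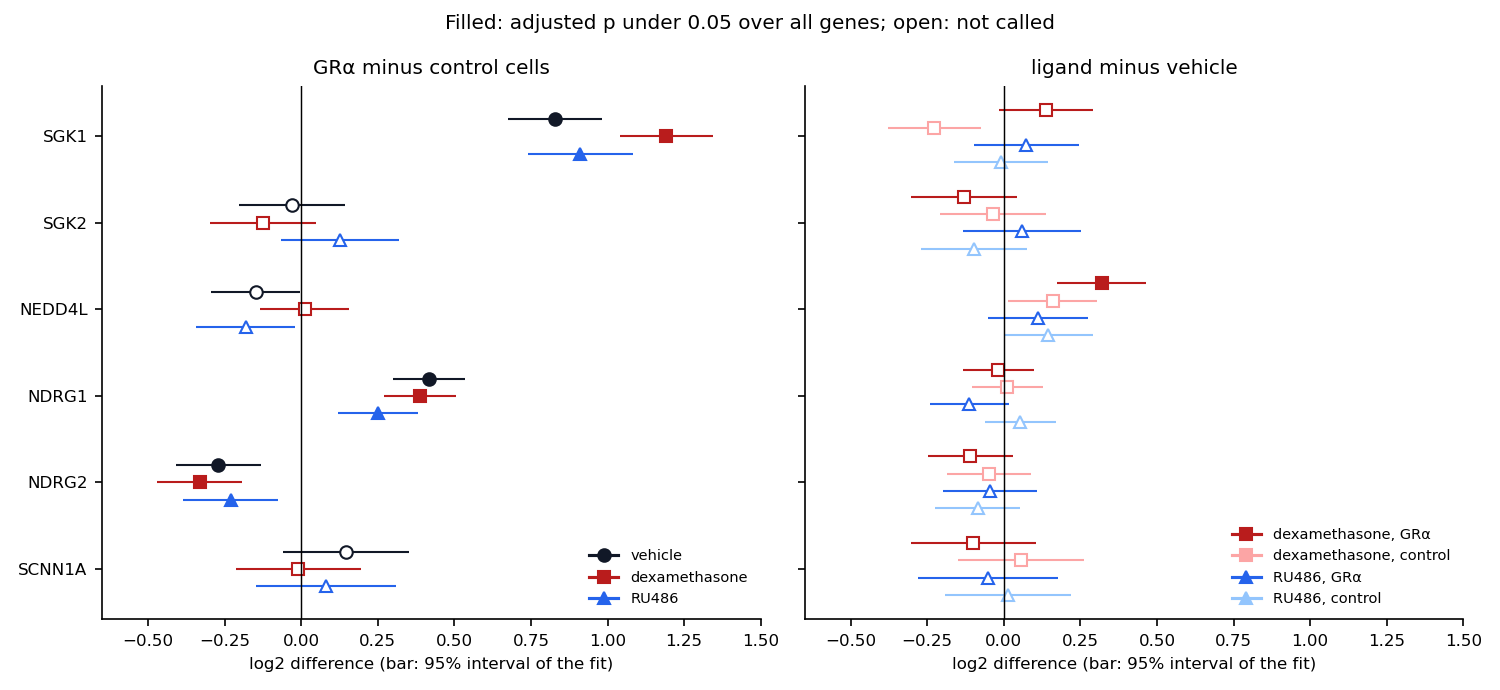
Log2 differences of the 6 measured members with 95% intervals from the limma fit, between GRα and control cells under each treatment (left) and between ligand and vehicle in each line (right); filled symbols were called. On the left SGK1 and NDRG1 lie to the right of 0 and NDRG2 to the left under all 3 treatments, and on the right NEDD4L with dexamethasone in GRα cells, at 0.32, is the filled symbol.

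RU486 called no member in either line, and 0% of all genes were called, with 1572 of 18417 genes at an unadjusted limma p under 0.05 in GRα cells and 621 in control cells. In GRα cells both RU486 arrays of NDRG1 lay below the vehicle arrays, with 20.4% of all genes apart (log2 -0.11 ± 0.06 SE, unadjusted p = 0.0853, adjusted p = 0.642, limma). The dim SCNN1A lay apart there as well (log2 -0.05 ± 0.11 SE, not called). In control cells the RU486 arrays of NEDD4L lay above the vehicle arrays, with 12.2% of all genes apart (log2 0.15 ± 0.07 SE, unadjusted p = 0.0503, adjusted p = 0.999, limma). SGK1 differed from vehicle by 0.07 ± 0.08 SE in GRα cells and by -0.01 ± 0.07 SE in control cells. No member and 0% of all genes were called for a line difference in the effect of RU486, with 745 genes at an unadjusted limma p under 0.05.

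Set against each other within a line, dexamethasone and RU486 gave no called member, while 0.896% of all genes were called in GRα cells and 0.364% in control cells. NEDD4L was 0.21 ± 0.08 SE higher with dexamethasone in GRα cells (unadjusted p = 0.0153, adjusted p = 0.371, limma), without overlap between the arrays, as for 26.9% of all genes. In this comparison 4 of the 6 members lay apart, with NEDD4L and NDRG1 higher and SGK2 and NDRG2 lower. SGK1 was lower with dexamethasone in control cells (log2 -0.22 ± 0.07 SE, unadjusted p = 0.00811, adjusted p = 0.496, limma), again without overlap, as for 14.4% of all genes. In GRα cells the interval for SGK1 ran from -0.11 to 0.23 on the log2 scale. Each pair of the 3 ligand comparisons of a line shares a group of arrays, so their values are given side by side only.

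The same dexamethasone arrays showed higher RNA of genes on a glucocorticoid-induced list. Of the 9 genes on this list, 7 rose in GRα cells, where 2.02% of all genes were called. The list median there was 0.92 log2, against -0.01 over all genes. In control cells, where 0.261% of all genes were called, 4 rose. ZBTB16, a transcription repressor, rose by 2.49 ± 0.09 SE log2 in GRα cells and by 1.42 ± 0.09 SE in control cells (adjusted p = 1.17e-11 and 5.88e-08, limma). PER1, a circadian clock gene, rose by 1.34 ± 0.07 SE and 0.95 ± 0.07 SE (adjusted p = 2.81e-09 and 9.11e-07, limma), and SLC26A2, a sulfate transporter, by 1.56 ± 0.07 SE and 1.28 ± 0.07 SE (adjusted p = 3.83e-10 and 1.95e-08, limma). MAOA, the monoamine oxidase, rose by 1.01 ± 0.08 SE in GRα cells (adjusted p = 1.08e-06, limma), and ERRFI1, an inhibitor of EGF receptor signalling, rose by 0.46 ± 0.06 SE in control cells (adjusted p = 0.00167, limma). In GRα vehicle MAOA was dim, at 5.09. This list was chosen with earlier results of these arrays known, and not every gene on it need be an established receptor target. It is no independent evidence of its direction or of the response of the cells.

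**Figure D3:**
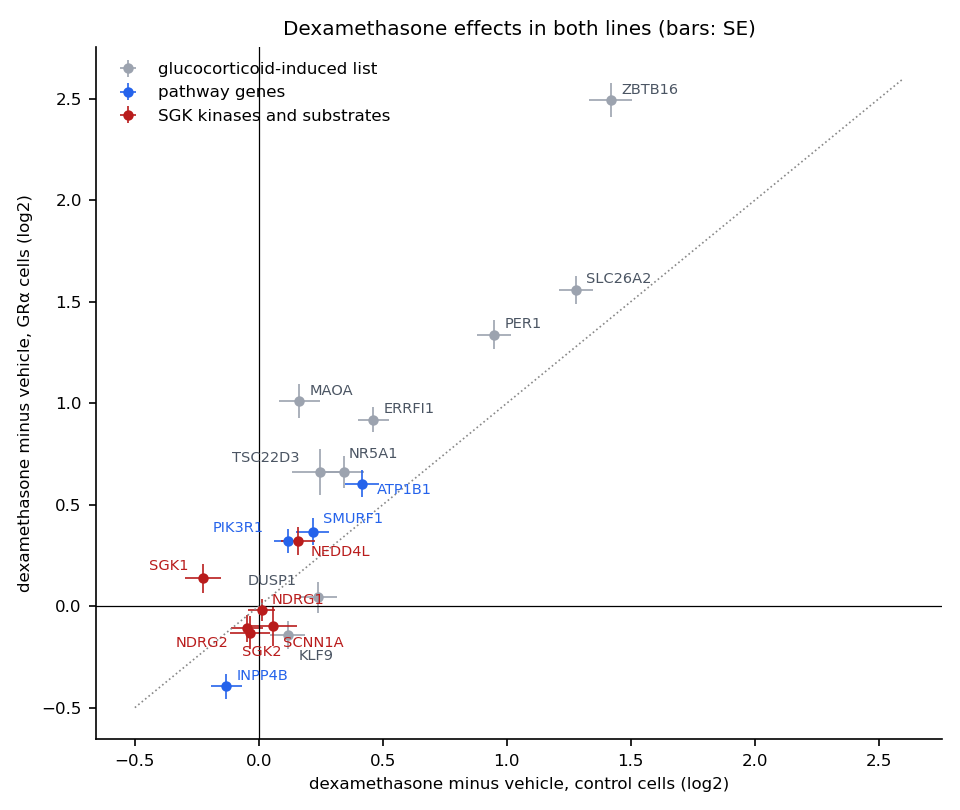
Log2 difference between dexamethasone and vehicle in control cells (horizontal axis) and in GRα cells (vertical axis) for the members (red), 4 pathway genes called in GRα cells (blue) and the glucocorticoid-induced list (grey); bars are SE and the dotted line marks equal effects. ZBTB16, SLC26A2 and PER1 lie far from 0 on both axes, whereas SGK1, at 0.14 in GRα cells and -0.23 in control cells, lies near the origin.

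Upstream of the kinases, 13 of 17 listed genes of PI3K, mTORC2, PDPK1 and the opposing phosphatases were measured, and in vehicle 3 were higher and 4 lower in GRα cells (median -0.05, against 0.01 for all genes). Over all genes 33.4% were called between the lines in vehicle (15% higher and 18.3% lower), and the list counts that follow stand beside this share. The mTORC2 partner PRR5L was higher by 0.72 ± 0.09 SE log2 (adjusted p = 4.13e-06, limma) and the mTORC2 subunit MAPKAP1 by 0.46 ± 0.06 SE (adjusted p = 5.71e-06, limma). INPP4B, a lipid phosphatase, was higher by 0.46 ± 0.06 SE (adjusted p = 1.47e-05, limma), and the protein phosphatase PHLPP2 was lower (-0.36 ± 0.09 SE, adjusted p = 0.0055, limma). Without GRα vehicle replicate B the PHLPP2 difference was -0.23 and still called (limma adjusted p = 0.0221). INPP4B fell with dexamethasone in GRα cells (log2 -0.40 ± 0.06 SE, adjusted p = 0.00173, limma), and PIK3R1, a regulatory subunit of PI3K, rose (0.32 ± 0.06 SE, adjusted p = 0.00564, limma). Against RU486 in GRα cells, a comparison that shares the dexamethasone arrays, both were called. The differences were -0.42 ± 0.07 SE for INPP4B and 0.39 ± 0.07 SE for PIK3R1 (adjusted p = 0.0037 and 0.00422, limma). No gene of this list was called for dexamethasone in control cells, where INPP4B changed by -0.13 ± 0.06 SE and PIK3R1 by 0.12 ± 0.06 SE. The line differences in these effects were not called (adjusted p = 0.501 and 0.612, limma). Both calls for dexamethasone against vehicle in GRα cells held without each array in turn. They were lost when only the arrays of that comparison were fitted (limma adjusted p = 0.113 for INPP4B and 0.223 for PIK3R1).

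Among 12 of 14 related AGC kinases, 1 was higher and 6 were lower in GRα vehicle, with a median of -0.18 log2 against 0.01 for all genes, of which 15% were higher and 18.3% lower. AKT1, which shares much of the SGK substrate motif, was higher by 0.45 ± 0.06 SE (adjusted p = 1.02e-05, limma). RPS6KA5, a nuclear stress kinase, was lower (-0.51 ± 0.09 SE, adjusted p = 0.000231, limma), as were RPS6KA6 (-0.37 ± 0.07 SE, adjusted p = 0.000739, limma) and the S6 kinase RPS6KB1 (-0.29 ± 0.06 SE, adjusted p = 0.00142, limma). The counts were 1 higher and 6 lower with dexamethasone (15.7% and 17.6% of all genes), and 1 higher and 7 lower with RU486 (13.1% and 16.2% of all genes). No gene of this list was called for either ligand in either line.

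All 21 listed ubiquitin ligases, adaptors and 14-3-3 proteins were measured, and 3 were higher and 6 lower in GRα vehicle (median -0.03), beside 33.4% of all genes called. The NEDD4-family ligases HECW2 (0.85 ± 0.10 SE, adjusted p = 3.23e-06, limma) and NEDD4 (0.57 ± 0.11 SE, adjusted p = 0.000728, limma) were higher. In control vehicle HECW2 averaged 5.34, below the lower quartile of gene means, 5.56. NDFIP2, an adaptor that recruits such ligases, was lower (-0.66 ± 0.07 SE, adjusted p = 1.3e-06, limma), as was UBE2G2, a conjugating enzyme of endoplasmic reticulum degradation, a route by which SGK1 is turned over (-0.70 ± 0.08 SE, adjusted p = 9.81e-07, limma). SMURF1 rose with dexamethasone in GRα cells (0.37 ± 0.07 SE, adjusted p = 0.00491, limma), as NEDD4L did, and the other 20 genes of the list were not called there. In control cells SMURF1 averaged 8.35 ± 0.03 in vehicle and 8.57 ± 0.07 with dexamethasone (SD, n = 3 each). These arrays lay apart, as for 12.7% of all genes, but the difference was not called. The SMURF1 call was lost when only the arrays compared were fitted (limma adjusted p = 0.188).

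Of the other SGK substrates, 13 of 14 were measured, with 2 higher and 3 lower in GRα vehicle (median 0.04), beside 33.4% of all genes called, and none called for either ligand. Within the NDRG family, NDRG4 was higher by 0.45 ± 0.07 SE (adjusted p = 9.3e-05, limma) and NDRG3 lower (-0.52 ± 0.07 SE, adjusted p = 2.76e-05, limma), so the 4 family members split evenly, with NDRG1 and NDRG4 higher and NDRG2 and NDRG3 lower. The split recurred with dexamethasone (NDRG4 0.29 ± 0.07 SE, NDRG3 -0.36 ± 0.07 SE) and with RU486 (NDRG4 0.33 ± 0.08 SE, NDRG3 -0.33 ± 0.08 SE), all called by limma. MAPT, the microtubule protein tau, was lower in vehicle (-0.53 ± 0.07 SE, adjusted p = 2.09e-05, limma), and so was the transcription factor FOXO4 (-0.49 ± 0.07 SE, adjusted p = 1.76e-05, limma).

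Of the sodium and potassium transport genes, 14 of 18 were measured, with 2 higher and 5 lower in GRα vehicle (median -0.12, against 0.01 for all genes), beside 15% of all genes higher and 18.3% lower. ATP1B3, a beta subunit of the sodium pump, was higher by 0.96 ± 0.09 SE (adjusted p = 1.35e-07, limma), as was the cotransporter SLC12A1 (0.85 ± 0.15 SE, adjusted p = 0.000279, limma). SCNN1G, the gamma subunit of ENaC, averaged 6.26 ± 0.03 (SD, n = 3) in control vehicle and 5.58 ± 0.16 (SD, n = 3) in GRα vehicle. It was lower in GRα cells in vehicle, with dexamethasone and with RU486, by log2 differences of -0.68 ± 0.10, -0.88 ± 0.10 and -0.77 ± 0.11 SE (adjusted p = 3.41e-05, 1.86e-06 and 3.87e-05, limma). The lower side of these differences was dim. SCNN1G averaged 5.47 in GRα dexamethasone and 5.45 in GRα RU486, and SLC12A1 averaged 5.39 in control vehicle. These lie below the lower quartile of gene means, 5.56, and whether they were above background was not tested. The beta and delta subunits, named here after their values were seen, were not called in vehicle (SCNN1B 0.17 ± 0.06 SE, adjusted p = 0.0553; SCNN1D 0.07 ± 0.07 SE, adjusted p = 0.484, limma). With dexamethasone SCNN1D was lower in GRα cells (-0.21 ± 0.07 SE, adjusted p = 0.0339, limma). KLHL3, an adaptor for degradation of WNK kinases, was lower (-0.45 ± 0.09 SE, adjusted p = 0.00096, limma).

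ATP1B1, the other listed beta subunit of the sodium pump, was the listed transport gene called for dexamethasone in both lines. It averaged 9.86 ± 0.04 in control vehicle and 10.28 ± 0.07 in control dexamethasone (SD, n = 3 each), a rise of 0.42 ± 0.07 SE log2 (adjusted p = 0.0106, limma). In GRα cells it averaged 9.83 ± 0.09 in vehicle and 10.43 ± 0.10 with dexamethasone (SD, n = 3 each), a rise of 0.60 ± 0.07 SE, or 1.52-fold (adjusted p = 4.18e-05, limma). With RU486 it averaged 9.85 ± 0.02 (SD, n = 3) in control cells and 9.85 ± 0.04 (SD, n = 2) in GRα cells, and it was not called. The difference between the lines in its dexamethasone rise was 0.19 ± 0.10 SE and was not called (adjusted p = 0.705, limma). The GRα call held without each array in turn, at log2 0.55 to 0.65. The control call was lost without control vehicle replicate B (limma adjusted p = 0.0809) or C (0.0671), without control dexamethasone replicate A (0.0772) or B (0.0521), and with only the arrays compared (0.0615).

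**Figure D4:**
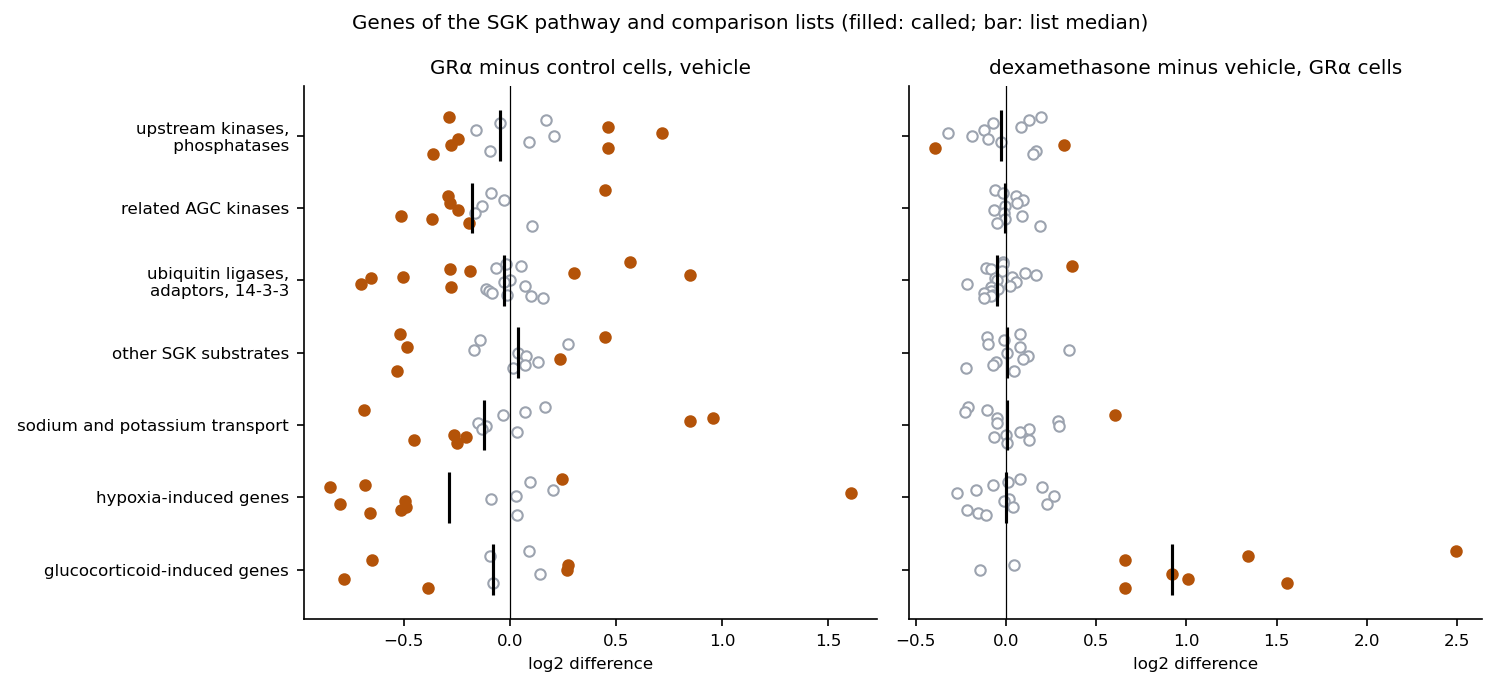
Log2 differences of the genes of each list between GRα and control cells in vehicle (left) and between dexamethasone and vehicle in GRα cells (right), with called genes filled and the list median as a bar. The pathway lists hold called genes on both sides of 0 on the left, and on the right the glucocorticoid-induced list, with a median of 0.92, holds 7 filled genes.

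The genes whose values followed SGK1 most closely over the 17 arrays were CFLAR, an inhibitor of caspase activation, RAB30, a small GTPase, DENND4A, BBS4 and PHYHIPL, with Pearson r of 0.98 to 0.99. The arrays form 2 clusters, one per line, and these coefficients hold the gap between the lines. Within control cells (n = 9) and GRα cells (n = 8), r was 0.73 and 0.73 for CFLAR, 0.66 and 0.70 for RAB30, 0.85 and 0.14 for DENND4A, 0.86 and 0.07 for BBS4, and 0.44 and 0.87 for PHYHIPL. For NDRG1 the closest were CRKL, ADPGK, CDKN2B, SCARNA8 and MAGEC1 (r 0.97 each), with r of 0.15 to 0.63 within control cells and 0.38 to 0.84 within GRα cells. For SCNN1A they were GAS2L2, CEND1, TLX2, ZNF516-DT and AXL (r 0.83 to 0.88), with r of 0.82 to 0.97 within control cells and 0.52 to 0.93 within GRα cells.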

How the data were processed

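RNA levels in 17 arrays were read from the table of log2 values that the authors deposited. RMA and limma were used per the submitters' processing notes. Version, settings and genome build were not given in the sources used here. RMA quantile-normalizes the arrays, so a shift of most RNAs together would not appear. Per the labels' protocols, cells were treated at 70% confluence and 100 ng of total RNA was labelled as biotinylated cDNA. Separate cultures are not named for the biological replicates, so p-values reflect only the spread between these arrays, and that spread may be technical.

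Probe sets were named through the platform annotation, and 19429 of the 19460 with 1 symbol matched a RefSeq gene table. Those with several symbols (1754) or none (7939) stayed out, among them a second NDRG2 probe set. Of several probe sets of a gene, the one with the highest mean was used. A limma fit (version 3.58.1, R 4.3.3) had a mean for each of the 6 groups and 11 contrasts, with 11 residual degrees of freedom (5.89 prior). A two-sided test was called where its p, adjusted by Benjamini-Hochberg over 18417 genes, was under 0.05. The fit was tested on simulated data.

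The members, gene lists and tests were chosen with earlier results of these data known. The text names all members, NR3C1, up to 4 called list genes with non-overlapping arrays per list in vehicle and for dexamethasone, and the 5 genes most like SGK1, NDRG1 and SCNN1A. Alternatives were median centring, no dim genes, trend and robust options, array weights, probe set means, a replicate block, a stricter threshold, fitting only the arrays compared, and leaving out each array. Leaving out GRα vehicle replicate B everywhere and testing all probe sets were chosen after seeing the data.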

Additional observations from a re-analysis of the deposited data

Results flagged for a closer look

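Against the mean of the vehicle arrays of their line, the SGK1 arrays with dexamethasone lay higher in GRα cells and lower in control cells. Every dexamethasone array fell on that side of the mean, although in GRα cells the dexamethasone and vehicle arrays overlapped. The rule was applied to each of the 6 measured members with dexamethasone and with RU486. Only this result and the next met it, so both were picked by the rule from these values. How many of all genes meet this rule was not counted. The difference of the effects was 0.36 log2 (unadjusted p = 0.00251). It was not called over all genes (adjusted p = 0.383, limma), and leaving out each of the 12 arrays in turn gave 0.31 to 0.44.

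By the same rule, the NDRG1 arrays with RU486 lay below the vehicle mean in GRα cells and above it in control cells. In control cells the RU486 and vehicle arrays overlapped. The difference of the effects was -0.17 log2 (unadjusted p = 0.0607, adjusted p = 0.999, limma), on 2 RU486 arrays in GRα cells.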

How the results depend on the processing

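Of 986 values of single members under alternatives, 942 kept their direction and side of the threshold, 7 lost a call, 4 gained one and 33 changed sign. None of the 33 belonged to a called result, and the largest of their main values was 0.07 log2 in size. With median centring, NDRG1 with dexamethasone in control cells went to -0.0002 and SCNN1A with RU486 in control cells to -0.0005. With array weights these went to -0.0018 and -0.0571, the line by dexamethasone difference of NDRG1 to 0.0006 and the line by RU486 difference of SCNN1A to 0.0183. The other sign changes came when leaving out an array. For dexamethasone against vehicle in control cells, NDRG1 ran from -0.0148 to 0.0403, SCNN1A ran from -0.0707 to 0.1431, SGK2 ran from -0.0707 to 0.0042. For RU486 against vehicle in control cells, SGK1 ran from -0.0907 to 0.035 and SCNN1A ran from -0.1129 to 0.1009. For the line by RU486 difference, SCNN1A ran from -0.1526 to 0.0613, NEDD4L ran from -0.1237 to 0.0201, NDRG2 ran from -0.0065 to 0.0924. Between the lines in vehicle, SGK2 ran from -0.0784 to 0.01. Between the lines with dexamethasone, NEDD4L ran from -0.0088 to 0.0249 and SCNN1A ran from -0.0595 to 0.0648. For dexamethasone against RU486 in control cells, SCNN1A ran from -0.0088 to 0.0949, NEDD4L ran from -0.0117 to 0.0423, NDRG2 ran from -0.0012 to 0.0685, SGK2 ran from -0.0078 to 0.1184. For RU486 against vehicle in GRα cells, NDRG2 ran from -0.0917 to 0.0072 and SGK2 ran from -0.0131 to 0.1324. For dexamethasone against vehicle in GRα cells, NDRG1 ran from -0.0434 to 0.0041. For dexamethasone against RU486 in GRα cells, SCNN1A ran from -0.0981 to 0.0262. Of 538 values of the named list genes, 529 kept direction and side, 9 lost a call and 0 reversed. Counts of all genes called varied most for ligand effects. For dexamethasone in control cells the count was 74 with trend and robust options, 148 with array weights (with 1 member, SGK1) and 16 at adjusted p under 0.01, against 48. It was 23 with only the arrays compared and 17 to 23 when leaving out each array of the comparison. Without GRα vehicle replicate B, an array outside the comparison, it was 82. For dexamethasone against RU486 in control cells it was 107, 214 and 37 under the first 3 of these settings, against 67. It was 29 to 53 when leaving out each array of that comparison and 113 without GRα vehicle replicate B. For the line by dexamethasone difference it was 19 with trend and robust options, 22 with array weights and 5 at adjusted p under 0.01, against 12. It was 5 with only the arrays compared and 6 to 15 when leaving out each of them. In GRα cells, dexamethasone gave 171 genes and 0 members at adjusted p under 0.01, 77 genes and 0 members with only the arrays compared, and 200 to 601 genes and 0 to 1 members when leaving out arrays, against 372 and 1. Dexamethasone against RU486 in GRα cells gave 83 at adjusted p under 0.01 and 54 with only the arrays compared, against 165. It gave 102 to 117 without each GRα dexamethasone array and 259 without GRα vehicle replicate B. RU486 against vehicle in GRα cells gave 0 without each GRα vehicle array. Fits that left 1 RU486 array in GRα cells are not counted here. Whether the replicate letters pair the samples was not settled. Over 40 same-letter pairs, within and across the lines, the correlation of deviations ran from -0.25 to 0.32, with 5 above 0.1. Within control cells alone it ran from -0.02 to 0.32. Of 17 arrays, 4 were most like their own letter. The main fit used no pairing. With a replicate block, 5967 genes were called between the lines in vehicle, against 6144, and no member's call changed. Groups of 2 or 3 arrays limit the precision, SGK2 and SCNN1A are dim, and array date and background correction could not be varied in values that were already summarised.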

Other observations

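Among genes known, like NDRG1, to be induced by low oxygen, 14 of 15 listed were measured, and 2 were higher and 7 lower in GRα vehicle (median -0.29 log2, against 0.01 for all genes), beside 15% of all genes called higher and 18.3% lower. EGLN3, an oxygen-sensing prolyl hydroxylase, was higher by 1.61 ± 0.08 SE (adjusted p = 4.16e-11, limma). PDK1, the pyruvate dehydrogenase kinase (not PDPK1), was lower (-0.85 ± 0.07 SE, adjusted p = 5.37e-08, limma), as were the collagen hydroxylase subunit P4HA1 (-0.80 ± 0.08 SE, adjusted p = 2.29e-07, limma) and the mitophagy receptor BNIP3L (-0.68 ± 0.09 SE, adjusted p = 9.55e-06, limma). No gene of the list was called for dexamethasone in either line.

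Of the 9 genes on the glucocorticoid-induced list, 2 were higher in GRα vehicle, 3 lower and 4 not called (median -0.08 log2). Over all genes 15% were higher and 18.3% lower. DUSP1, a phosphatase of MAP kinases (0.27 ± 0.08 SE, adjusted p = 0.00869, limma), and KLF9, named after its values were seen (0.27 ± 0.07 SE, adjusted p = 0.00615, limma), were higher. MAOA (-0.78 ± 0.08 SE, adjusted p = 7.47e-07, limma), TSC22D3 (-0.65 ± 0.11 SE, adjusted p = 0.00019, limma) and NR5A1 (-0.39 ± 0.08 SE, adjusted p = 0.000917, limma) were lower. In GRα vehicle MAOA averaged 5.09, below the lower quartile of gene means, 5.56. Over all 17 arrays SGK1 correlated with NDRG1 at r = 0.93 and with NDRG2 at -0.90. Within control cells (n = 9) these values were -0.16 and -0.30, and within GRα cells (n = 8) -0.27 and -0.12, so the pooled values hold the gap between the lines.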
